A study of Mus musculus with 8 samples.

Results

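Anxa10, Vsig1, Mal, Bpifb1, Capn8 and Capn9 are 6 genes listed as foregut epithelial genes, grouped here because a comparison of Rfx6 knockout with control small intestine had shown them higher in the knockout. They are 6 of the 36066 genes on the array and of the 23274 genes that passed the filter on dim probes, and they were found by the gene name given for each probe, which for Bpifb1 is the older name U46068. Together they have 8 probes. Because the 6 genes were selected on the difference between knockout and control, that difference is given for them as a description and carries no test.

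The study measured total RNA of the small intestine of E18.5 mouse embryos on 8 one-colour arrays, 4 per group. The control group was wild type (Rfx6+/+). The knockout group was Rfx6-/-: floxed mice were crossed to a CMV-Cre line, which deletes in cells of all kinds including the germline, and the heterozygous offspring were intercrossed, so the loss was not limited to the gut or to 1 cell type. The whole small intestine was taken and strain and sex are not given in the labels. Each sample has its own number, but the labels do not state that each came from a single embryo, so p-values measure the spread between these samples. In such bulk tissue more cells of a type and more RNA per cell cannot be told apart.

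Rfx6 is a transcription factor of the regulatory factor X family, required for the formation of pancreatic islet cells and for enteroendocrine cells of the gut. The stomach and the intestine form as neighbouring parts of one endodermal tube, and each epithelium expresses its own set of secreted, junctional and membrane proteins. Anxa10 is an annexin, a protein that binds membrane phospholipid, and is made by gastric epithelium. Vsig1 is an immunoglobulin-superfamily adhesion protein of gastric epithelial junctions. Mal is a 4-pass membrane protein of the MARVEL family that takes part in apical sorting. Bpifb1 is a secreted protein of the BPI fold family, known from airway and upper digestive mucosa. Capn8 and Capn9 are calpains, calcium-dependent cysteine proteases, that are found chiefly in the digestive tract and pair with each other as gastric calpain.

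The probes are shown because each level below is the brightness of 1 such sequence. Each probe is 60 bases long, and its first 30 bases are given 5′ to 3′.
Anxa10: tgctggtgatgtggaagactactgaaaaga
Vsig1: ggccatttaaatactctgtattactgtgtc
Mal: gggtgactaagaggaattgcccaaggtttc
Bpifb1 at transcript base 1637: actacccccctgcagttaataaacacttgc
Bpifb1 at transcript base 1612: aggagtgtggaagcctactgtgtagactac
Capn8: tgtcatttactgactgttgtattgtccagc
Capn9 at transcript base 2265: agggattggctgagttctctgattctgtgg
Capn9 at transcript base 1454: agccgcatcaggaggccgacttctgcctga
On mm9, the build of the files, the whole probes lie at chr8:64536504-64536563 for Anxa10, chrX:137473415-137473474 for Vsig1 and chr2:127458976-127459035 for Mal. The Bpifb1 probes lie at chr2:154046044-154046103 and chr2:154046019-154046078 and share 35 bases. The Capn8 probe lies at chr1:184562310-184562369. The Capn9 probes lie at chr8:127142567-127142626 and chr8:127129744-127129803, which is 12823 bases apart in the genome and 811 in the transcript. The longest run that any of the 8 probes shares with a probe of another gene is between 13 and 17 bases. Exon and UTR annotation on mm9 was not used here.

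The promoters of the 4 genes with large differences and of Capn8 are shown, the first 4 because these genes moved together and the last for its match to an RFX half-site. They are the 250 bases before the start of transcription in RefSeq, on GRCm38.p6, written 5′ to 3′ along the gene. Capitals mark the matches described after them.
Anxa10, chr8:62123194-62123443, minus strand: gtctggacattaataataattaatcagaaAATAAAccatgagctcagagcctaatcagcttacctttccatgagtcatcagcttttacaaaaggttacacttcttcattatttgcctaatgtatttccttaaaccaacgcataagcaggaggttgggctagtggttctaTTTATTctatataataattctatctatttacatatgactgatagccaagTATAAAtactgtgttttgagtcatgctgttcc
Vsig1, chrX:140907358-140907607, plus strand: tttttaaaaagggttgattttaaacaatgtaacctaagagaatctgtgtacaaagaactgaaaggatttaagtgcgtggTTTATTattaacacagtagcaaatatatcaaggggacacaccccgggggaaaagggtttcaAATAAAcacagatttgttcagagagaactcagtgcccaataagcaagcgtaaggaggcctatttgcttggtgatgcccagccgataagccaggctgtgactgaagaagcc
Mal, chr2:127656696-127656945, minus strand: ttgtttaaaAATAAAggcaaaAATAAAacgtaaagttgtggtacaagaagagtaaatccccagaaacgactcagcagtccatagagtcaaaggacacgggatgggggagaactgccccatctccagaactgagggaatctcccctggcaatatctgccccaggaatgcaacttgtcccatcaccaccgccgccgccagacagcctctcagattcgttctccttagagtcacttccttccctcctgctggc
Bpifb1, chr2:154190568-154190817, plus strand: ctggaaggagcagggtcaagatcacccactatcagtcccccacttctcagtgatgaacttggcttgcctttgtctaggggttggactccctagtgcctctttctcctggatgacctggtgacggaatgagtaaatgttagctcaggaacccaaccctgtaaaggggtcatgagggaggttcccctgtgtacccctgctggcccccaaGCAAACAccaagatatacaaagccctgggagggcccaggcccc
Capn8, chr1:182564757-182565006, plus strand: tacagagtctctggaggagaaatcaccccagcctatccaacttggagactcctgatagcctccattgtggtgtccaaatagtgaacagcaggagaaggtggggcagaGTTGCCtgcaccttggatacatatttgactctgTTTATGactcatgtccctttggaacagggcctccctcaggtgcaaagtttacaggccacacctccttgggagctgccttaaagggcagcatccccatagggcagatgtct
All 6 genes were matched in the table, with 7 promoters, since Bpifb1 has 2 starts. Both strands were searched, and each share is over the 32851 promoters of the table with the same window. The CDX motif TTTATT was found in 3 of the 7 promoters, those of Anxa10, Vsig1 and Mal, while 18.1% of all promoters have at least 1 match. Each of the 3 holds it in 2 places, and the share of all promoters with 2 matches was not counted. The capitals AATAAA are the same motif read on the other strand. The CDX motif TTTATG was found in Capn8 (10.8% of all promoters), which also holds the RFX half-site GTTGCC between 143 and 138 bases before the start (10.4% of all promoters). The FOXA motif TGTTTGC was found once, on the minus strand of the Bpifb1 promoter shown, 43 to 37 bases before the start (4.3% of all promoters). Anxa10 alone holds the TATA motif TATAAA, 32 to 27 bases before the start (12.4% of all promoters). The full RFX X-box (0.122% of all promoters), the RFX half-site GTTACC (6.06%), the FOXA motif TGTTTAC (3.17%), HNF1 (0.371%), the GATA motif AGATAA (9.99%) and the KLF motif GGGNGTGG (15.9%) have no match in these windows. The Anxa10 promoter has a GC content of 33.6%, below the median of 52.4% over all promoters, while that of Capn9 is 57.2%. These matches describe the letters only.

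Levels are log2 of the processed spot signal minus the array's 75th percentile, so that 0 is the level of a probe at that percentile. The 4 genes Anxa10, Vsig1, Mal and Bpifb1 were low on the control arrays, Vsig1 at background, and bright on the knockout arrays, whereas Capn8 and Capn9 were measured in both groups and differed by less than 2-fold. Thus the name "gained" describes 4 of the 6 genes. Capn9 was above the 75th percentile on every control array of small intestine, so its expression here was not limited to the foregut. All 6 had every knockout value above every control value, against 5.4% of all genes tested, and 4 of 6 were among the genes called higher, which are 2.32% of all genes tested (2.59% were called lower, limma adjusted p under 0.05). Centring the arrays on the median instead changed the 541 higher and 602 lower calls to 542 and 253. These counts follow from how the 6 genes were selected. Capn9 was called in no setting, and Capn8 was called where all 8 arrays had to be well above background, with the authors' series matrix values and without control 3. The median difference over the 6 was 7.17, and over all genes tested it was -0.05. The 7.17 takes Vsig1 at its measured difference of 7.75, for which only the bound of 6.11 holds.

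Anxa10 stood at -4.48, -3.91, -3.94 and -2.53 on control arrays 1 to 4 and at 4.00, 2.85, 2.81 and 3.84 on knockout arrays 1 to 4. The highest control array, control 4, was 5.34 below the lowest knockout array. The probe was well above background on all 8 arrays, and the difference was 7.09, or 136-fold. It was 59.6-fold with normexp background correction, which adds an offset of 50, and 64.9-fold with the series matrix values, from which no background was subtracted.

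Vsig1, the junctional adhesion protein, did not rise well above background on a control array, where its values were -6.79, -6.11, -7.04 and -5.05. On the knockout arrays it stood at 2.01, 1.12, 0.98 and 1.88. The knockout mean was at least 68.9-fold higher, taking for each control array the higher of the probe's own signal and the dimmest signal that was well above background. This bound holds for the processed signal, and the measured difference was 24.8-fold with normexp and 27.9-fold with the series matrix values.

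Mal was low but measured on all 4 control arrays, at -3.55, -3.51, -3.31 and -2.82. Its knockout levels were 4.63, 3.94, 3.14 and 4.46. The difference of 7.34 is 162-fold (72.8-fold with normexp and 77.7-fold with the series matrix values), and the knockout arrays varied among themselves by 1.49, more than for the other 5 genes. Knockout 3 was the lowest of the 4.

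Bpifb1, the secreted BPI fold protein, was read by both of its probes. The probe with the higher mean level, at transcript base 1637, gave -1.44, -1.15, -1.41 and -0.95 on the control arrays and 6.50, 5.99, 5.75 and 5.78 on the knockout arrays, a difference of 7.24 or 152-fold. The probe at transcript base 1612 gave -4.71, -4.90, -4.52 and -2.14 on the control arrays, of which 3 of 4 were well above background, and 6.47, 6.01, 5.72 and 5.76 on the knockout arrays. The probes agree within 0.03 on each knockout array and differ by 1.19 to 3.75 on the control arrays. The fold change therefore depends on the probe. It was 152-fold with the first. With the other the measured difference was 10.06, and the knockout mean was at least 948-fold higher with the dim array, control 2, set to its dimmest signal well above background. Without control 4 this bound was 1420-fold. Both bounds hold for the processed signal only, since on control 1 to 3 this probe was near the dimmest signal well above background. The first probe gave 122-fold with normexp and 127-fold with the series matrix values.

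Capn8 was at -3.21, -3.68, -2.54 and -3.37 on the control arrays and at -2.07, -2.28, -2.53 and -2.31 on the knockout arrays. The groups do not overlap, but control 3 and knockout 3 are only 0.02 apart. The difference was 0.90, or 1.87-fold, and the control arrays spread over 1.13.

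Capn9 was at 0.85, 0.06, 0.86 and 0.66 on the control arrays and at 1.45, 1.06, 1.07 and 1.23 on the knockout arrays with the probe at transcript base 2265. The lowest knockout array lay 0.20 above the highest control array, and the difference was 0.60 or 1.51-fold. The probe at transcript base 1454 was dimmer, at -4.29, -4.35, -4.06 and -3.84 against -3.62, -3.63, -3.75 and -3.62, and differed by 0.48 or 1.39-fold. Both probes place the Capn9 groups apart in the same direction with a change under 2-fold.

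**Figure D1:**
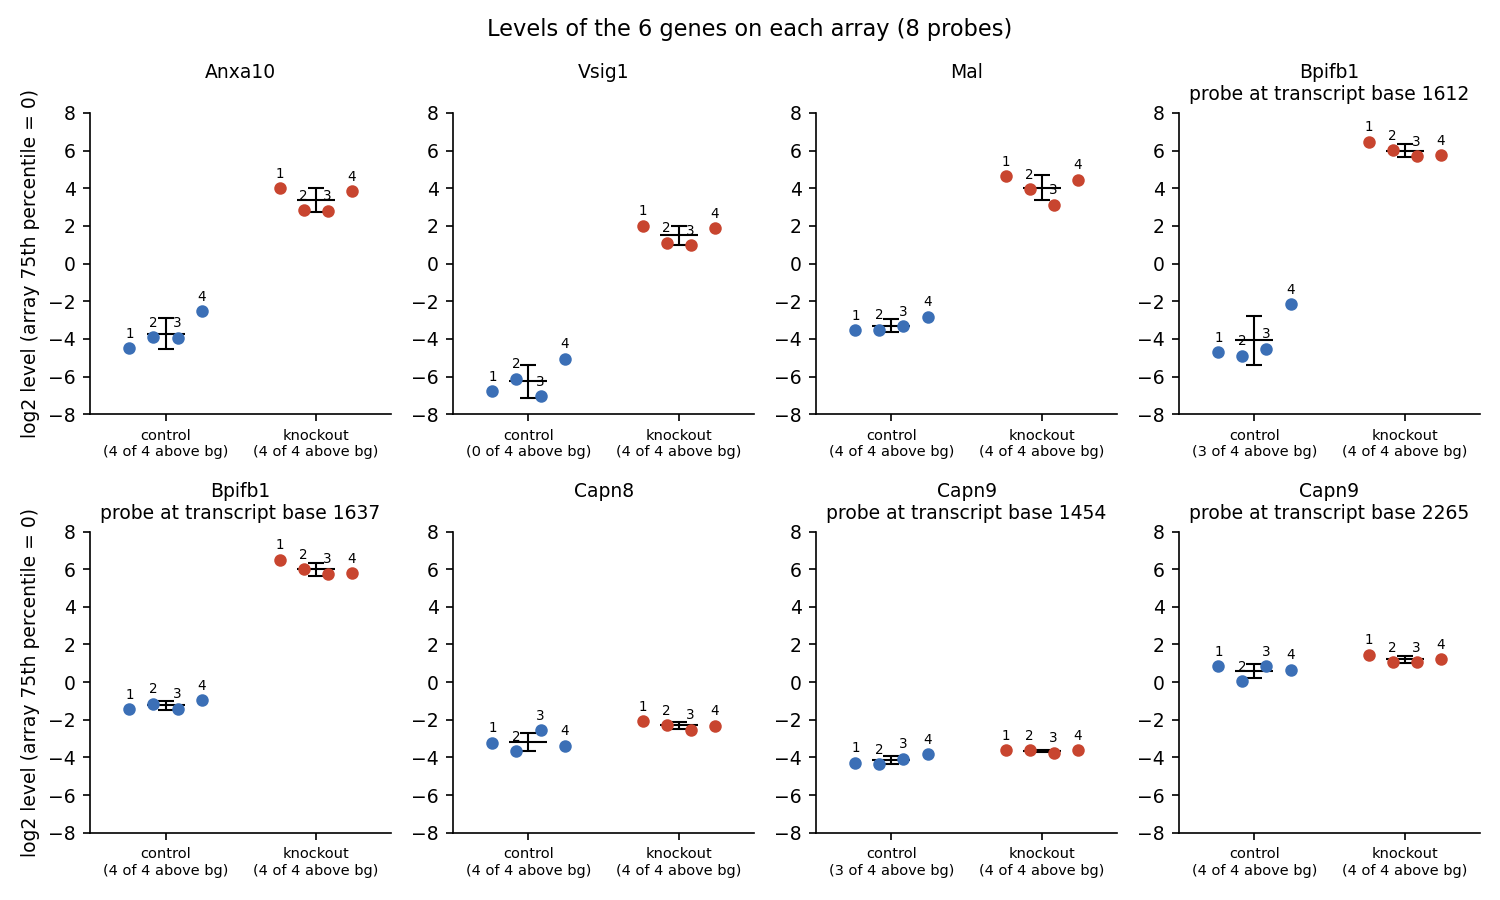
Levels of the 6 genes on each array, 1 panel per probe; the vertical axis is log2 level with the array's 75th percentile at 0. Points are numbered arrays, bars are mean and SD of 4 arrays, and the text under each group gives how many arrays were well above background (bg). Anxa10, Vsig1, Mal and Bpifb1 separate widely, while Capn8 and Capn9 lie close together.

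Among the 21881 genes well above background on all 8 arrays, Mal, Bpifb1 and Anxa10 ranked 2, 3 and 4 by the size of the rise, and Capn8 and Capn9 ranked 199 and 445. Of all 23274 genes tested, 11 had a difference of 7 or more and 106 were called and at least 4-fold higher. Both counts use measured differences and include genes at background on the control arrays, such as Vsig1, for which only a bound holds. No member lay between the 7.09 of Anxa10 and the 0.90 of Capn8.

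Slide row is a possible batch, since 1 slide carried all 8 arrays in 2 rows: row 1 held control 1 with knockout 2, 3 and 4, and row 2 held knockout 1 with control 2, 3 and 4. Within the rows the differences were 7.65 and 7.46 for Anxa10, 8.12 and 8.08 for Vsig1, 7.39 and 7.84 for Mal and 7.28 and 7.67 for Bpifb1, each at least as large as over both rows. They were 0.84 and 1.13 for Capn8. For Capn9 they were 0.27 and 0.92. The Vsig1 values are measured differences from control signals at background. Each row holds 1 array of one group, so a row effect cannot be told apart from that array.

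The knockout arrays also differed from each other in a shared way. Knockout 1 was the highest of the 4 for 6 of 6 genes, and knockout 3 the lowest for all but Capn9, for which knockout 2 was lowest. The share of all genes that follow this order was not counted. Knockout 1 was also the only knockout array in slide row 2. It had 57.4% of probes well above background, against 63.7% to 67.1% on the other knockout arrays. Its deviation cannot be told apart from the row or from this trait of the array. Anxa10 deviated from its knockout mean by 0.63, -0.52, -0.56 and 0.46 on knockout 1 to 4, Vsig1 by 0.51, -0.38, -0.52 and 0.38, and Mal by 0.59, -0.10, -0.90 and 0.42. Bpifb1 deviated by 0.50, -0.01, -0.26 and -0.23, so on knockout 4 it was below its mean while the other 3 were above theirs. Capn8 and Capn9 deviated by at most 0.24. The genes share the same 4 libraries, so these are not independent observations.

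Markers of the gastric surface mucous cell moved in the same order over the knockout arrays as Anxa10, Vsig1 and Mal. The mean of the 7 tested genes of this list of 8 deviated by 0.51, -0.35, -0.48 and 0.32, and its summed level ran from 0.666 to 6.52 on the control arrays and from 382 to 719 on the knockout arrays. The sum is carried mostly by the brightest genes. Tff1 had a knockout mean of 8.73, with Gkn2 next at 6.43. The highest control values of Tff1 and Tff2 were 1.28 and 1.27, and Tff1 was well above background on 2 control arrays. Of these 7 genes 6 were called higher, against 2.32% of all genes tested, and 1, Muc5ac, was not, with a difference of 0.61. However, 4 of the 6 passed the filter only through the knockout arrays, and of the 3 well above background on all 8 arrays 2 were called higher. The gastric gland list had 5 of 7 tested genes called higher, of which 4 passed the filter only through the knockout arrays; of the 2 well above background on all 8 arrays 1 was called higher. Its mean deviated by 0.52, -0.20, 0.02 and -0.34. The squamous foregut list followed another order (0.60, 0.97, -0.52 and -1.06). Of its 10 genes 7 were tested and 2 were called higher. At an unadjusted limma p under 0.05, 5 of the 7 were higher and 0 lower. Krt5 and Krt4 did not overlap between groups but were not called (limma adjusted p = 0.066 and 0.063). Krt4 passed the filter only through the knockout arrays. Trp63 and Krt14 had differences of -0.14 and -0.29. Sprr3, not tested, was well above background on 0 control and 3 knockout arrays. Control 4, the highest control for Anxa10, Vsig1, Mal and both Bpifb1 probes, was also the highest control array for the mean of the gastric surface mucous list, at -1.78 against -4.15 to -3.19. The part that these markers have in the levels of the 6 genes was not tested. Without control 4 the differences were 7.49 for Anxa10, 8.15 for Vsig1, 7.50 for Mal and 7.34 for Bpifb1. That of Vsig1 was measured from control signals at background.

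**Figure D2:**
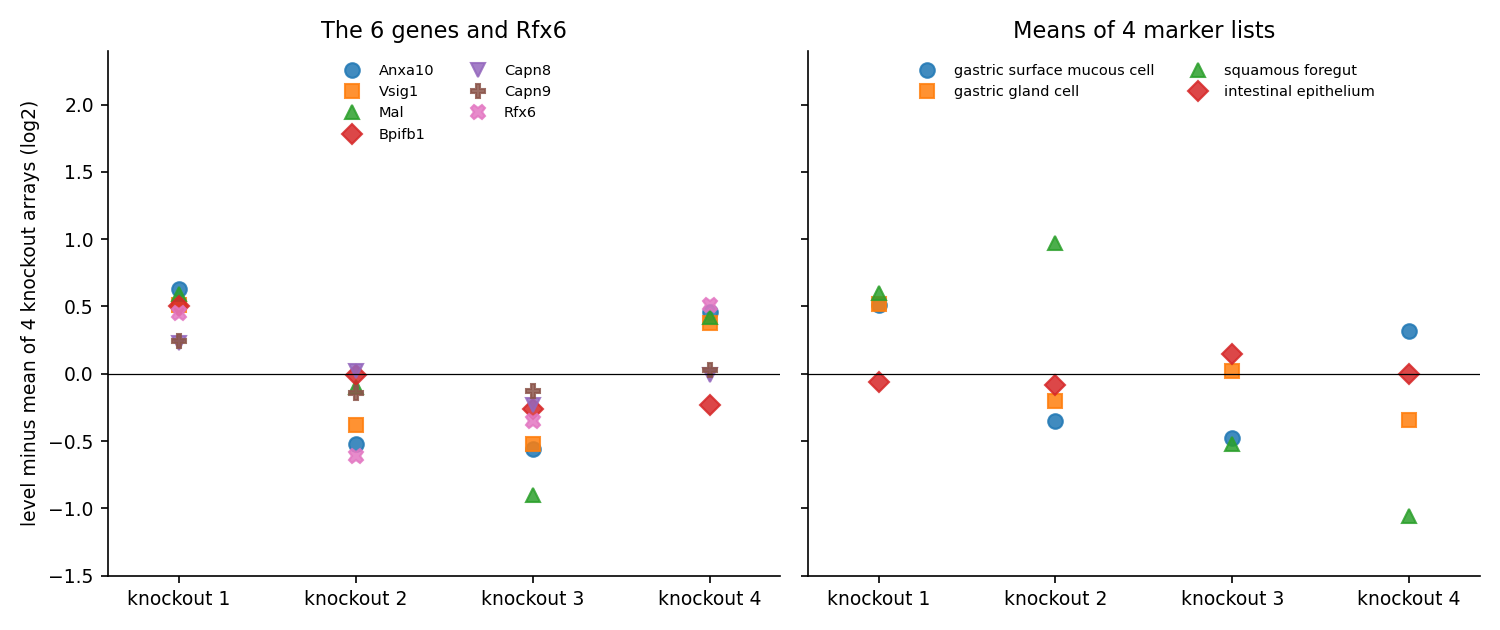
Deviation of each knockout array from the mean of the 4 knockout arrays, in log2 units, for the 6 genes and Rfx6 (left) and for the means of 4 marker lists (right). Knockout 1 is highest for the 6 genes, and the gastric surface mucous list is above its mean on knockout 1 and 4, as are Anxa10, Vsig1 and Mal.

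The tissue label was checked with the same markers. All 10 intestinal epithelium markers were well above background on all 8 arrays. Of these 4 were called lower in the knockout, against 2.59% of all genes tested, and 6 were not called. Among the 4, Fabp2 was near the threshold (limma adjusted p = 0.048). The list median was -0.23, against -0.05 for all genes. The number of all genes called lower depends on the scaling, with 602 here and 253 with median centring. Of the 4 stomach mesenchyme markers, Barx1 and Nkx2-5 were not well above background on any of the 8 arrays. Six2 was well above background on 1 knockout array and 0 control arrays, and was not tested. Nkx3-2, the 1 gene tested, was well above background on all 8 arrays, with a difference of 0.00. Airway and lung markers had 0 of 2 tested genes called by limma (1 at an unadjusted p under 0.05). The lung surfactant gene Sftpc, which was not tested, was at 4.70 on control 1, at -5.04 on knockout 3 and not well above background on the other 6 arrays. The urothelium list had 1 of 5 tested genes, called lower. The colon list had 1 of 4 tested genes called lower, and exocrine pancreas had 0 of 5 called by limma (0 at an unadjusted p under 0.05). Rfx6 itself, on its 1 probe, was at -2.93, -2.91, -2.98 and -3.74 on the control arrays and at -2.32, -3.37, -3.11 and -2.25 on the knockout arrays. Knockout minus control was 0.38, with a limma standard error of 0.29 and an adjusted p of 0.503, so the targeted gene does not check the labels, and groups are called by them here.

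Likeness of profile was measured as the root mean square distance over the 8 arrays between levels centred on each gene's own mean. Among 23158 other genes, those nearest to Anxa10 were Sult1c2 (0.21), a sulfotransferase, Cym (0.33), the milk-clotting protease chymosin, and Ctse (0.45), the gastric aspartic protease cathepsin E. Sult1c2, Cym and the mucin gene Muc5b were the 3 nearest to Mal, Bpifb1 and Vsig1 alike. The nearest lay at 0.34 for Mal, at 0.43 for Bpifb1 and at 0.54 for Vsig1. Within a distance of 0.50 there were 3 other genes for Anxa10, 3 for Mal, 2 for Bpifb1 and 0 for Vsig1. Among the 6 themselves, Mal and Bpifb1 were 0.36 apart and Anxa10 and Mal 0.39. The distance includes the difference between the groups, on which the 6 were selected, so a short distance among them is a description only. Sult1c2 was well above background on 2 control arrays and Ctse on 3, so both passed the filter only through the knockout arrays. Vsig1 was well above background on 0 control arrays. The calpains stood with many genes of small change: 3902 genes lay within 0.50 of Capn8 and 15698 within 0.50 of Capn9. The nearest to Capn8 were B3galt5, Btbd17 and Prss32 (0.18 each), and to Capn9 Krt85, Plin5 and Krt42 (0.09 each). Capn8 and Capn9 were 0.25 apart.

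Relatives of the 6 genes were listed by family, with earlier results of these data known, and were tested in the fit across all genes. Of 70 listed relatives in 5 families, 68 are on the array and 58 passed the filter. Limma called 10 of the 58 higher, or 17.2%, against 2.32% of all genes tested, and 1 lower, or 1.72%, against 2.59%. The median difference of the 58 was 0.11, against -0.05 for all genes. Bpifa6 and Bpifb5 entered only through the knockout arrays. Among the 56 relatives well above background on all 8 arrays, 8 were called higher, or 14.3%, against 1.91% of the 21881 genes that met the same condition. A list of this kind is described by its counts and is no independent sample of genes.

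In the BPI fold family, secreted lipid-binding proteins, 2 of 8 tested relatives rose and 0 fell (limma; 0 fell at an unadjusted p under 0.05). Bpifb5 was dim, with no control array well above background (-6.97, -6.23, -6.94 and -6.36) and was at -0.63, -0.92, -1.32 and -1.21 on the knockout arrays. Its knockout mean was at least 12-fold higher on the processed signal (limma adjusted p = 2e-06), while the measured difference was 5.43-fold with normexp and 5.96-fold with the series matrix values. Bpifa6 was also dim on the control arrays (-6.98, -6.28, -6.93 and -6.39) and stood at -2.26, -3.29, -3.24 and -2.56 on the knockout arrays, at least 3.41-fold higher (limma adjusted p = 0.00012), with 2.28-fold and 2.44-fold under the same alternatives. Both genes passed the filter only through the knockout arrays, where they are high, so these p-values and the count of 2 are conditional on that. In the fit with no filter the limma adjusted p was 4.4e-05 for Bpifb5 and 0.0013 for Bpifa6.

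In the junctional immunoglobulin family, adhesion proteins of epithelial and endothelial contacts, 2 of 11 relatives rose and 1 fell. Vsig2, the closest to Vsig1 by name, was at -0.15, 0.11, 0.08 and 0.36 on the control arrays and at 5.0, 3.95, 3.62 and 4.91 on the knockout arrays, 19.3-fold higher (limma adjusted p = 0.00013). Its other probe moved the same way, by 4.38. Vsig8 was 2.3-fold higher, at -2.26 ± 0.15 (SD, n = 4) in the control and -1.06 ± 0.39 (SD, n = 4) in the knockout group (limma adjusted p = 0.0075). Igsf5, a junctional protein known from kidney and gut, was lower by a difference of -0.45 (limma adjusted p = 0.031). Its call was lost in 13 of 18 settings, among them on leaving out any array but knockout 4, with adjusted p from 0.021 to 0.15 over the settings and 0.088 with the slide row as a block.

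In the annexin family 3 of 11 relatives rose. Anxa1, an annexin best known in inflammation, stood at 1.96, 1.97, 1.34 and 1.62 on the control arrays and 4.03, 4.16, 2.63 and 3.23 on the knockout arrays, 3.45-fold higher (limma adjusted p = 0.017, and 0.061 without knockout 1). Its other probe differed by 1.76. Anxa8 was 1.87-fold higher (limma adjusted p = 0.014), with 0.91 for its other probe, and Anxa3 1.76-fold higher (limma adjusted p = 0.0079). With the slide row as a block the adjusted p of Anxa8 was 0.053. The lowest difference was -0.34, for Anxa13, and was not called.

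In the calpain family 2 of 12 relatives rose. Capn13 stood at -1.85, -3.03, -1.73 and -1.53 on the control arrays and at 0.17, -0.70, -0.59 and 0.19 on the knockout arrays, 3.49-fold higher (limma adjusted p = 0.022). Capn5 was 1.89-fold higher (limma adjusted p = 0.018), with 0.52 for its other probe. Both calls were lost without control 1 (adjusted p = 0.058 and 0.056), Capn13 also without knockout 1 (0.079) or knockout 4 (0.054), and Capn5 also without knockout 2 (0.054). Capn2, whose gene lies next to Capn8, had a difference of 0.33 and was not called. With the slide row as a block the adjusted p of Capn13 was 0.058.

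In the MARVEL family 1 of 16 relatives rose. This was Pllp, plasmolipin, a 4-pass membrane protein like Mal, at 0.72, 0.73, 0.46 and 0.44 against 1.40, 1.05, 0.99 and 1.52 (difference 0.65, limma adjusted p = 0.034). The call was lost in 9 of 18 settings, among them on leaving out control 1, 3 or 4 or knockout 1, 2 or 4, with adjusted p up to 0.12 (0.086 where slide row was a block). Mal2 and Mall, the closest by name to Mal, had differences of -0.18 and -0.07 and were not called.

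**Figure D3:**
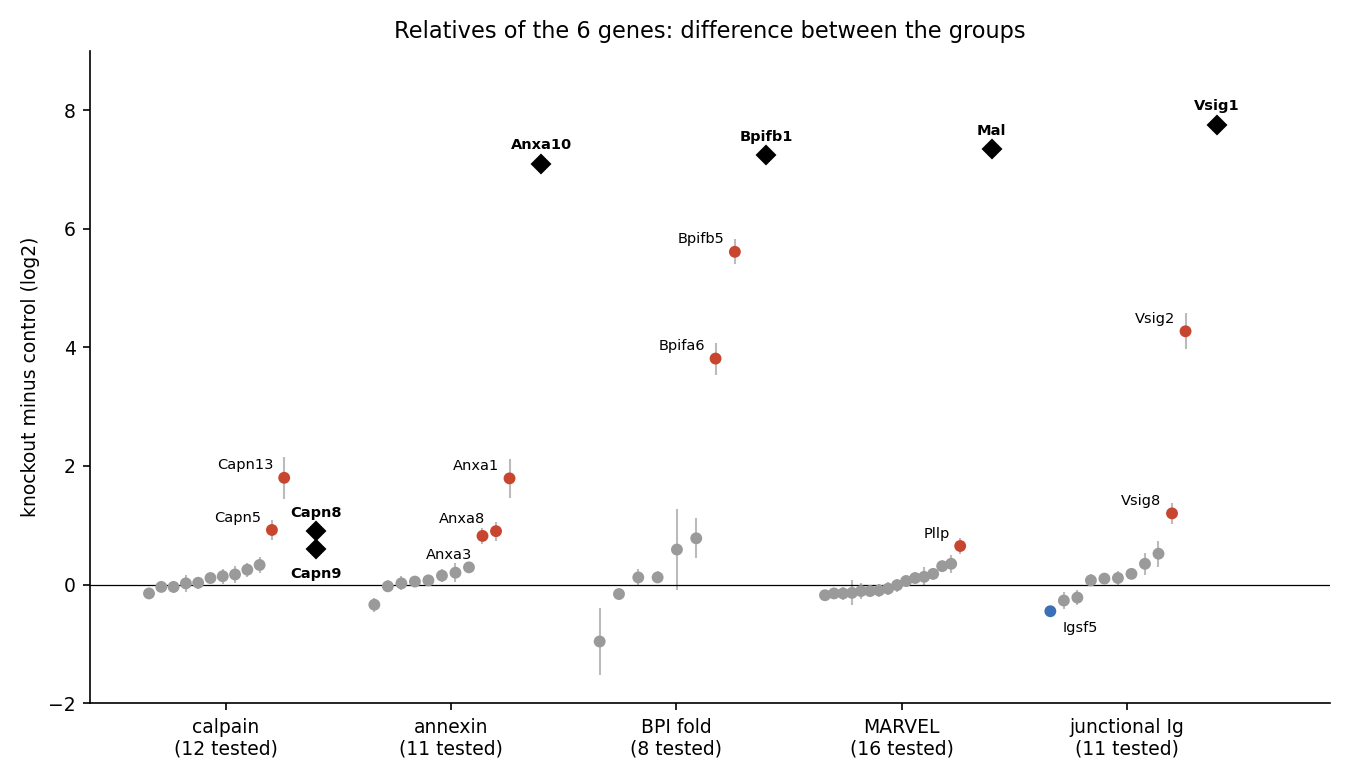
Difference between knockout and control in log2 units for each tested relative, by family, in order of size. Red marks called higher, blue called lower, grey not called, bars are standard errors from limma, and black diamonds are the 6 genes, which carry no test; Vsig1, Bpifa6 and Bpifb5 are drawn at their measured difference although their control level is only a bound. The relatives sit below the largest differences of the 6, with Bpifb5 and Vsig2 nearest to them.

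Gene order was looked at next, a choice made after the levels were seen. The 3 genes on each side of each of the 6 give 36 neighbours, of which 29 were tested. By limma 1 was called higher, Bpifb5 beside Bpifb1, and 0 lower, against 2.32% and 2.59% of all genes tested. At an unadjusted limma p under 0.05, 4 were higher and 1 was lower. The median difference of the neighbours was 0.00. Bpifb1 lies in a block of 14 genes on chromosome 2, of which 13 are on the array and 7 were tested. Besides Bpifb1 itself, Bpifa6 and Bpifb5 were called higher there, and 4 genes on the array were not well above background on any array. Bpifb1 was selected on this difference, and Bpifa6 and Bpifb5 passed the filter only through the knockout arrays, so these calls are conditional on that. Cdk5rap1, which lies between Bpifb1 and Bpifb5, was at 2.03 ± 0.14 (SD, n = 4) in the control and 1.88 ± 0.14 (SD, n = 4) in the knockout group and was not called. Bpifa5, on the other side of Bpifb1, was at -1.24 ± 0.03 and -1.40 ± 0.17 (SD, n = 4 each) and was not called. Bpifb6 was not called, and knockout 1 stood at -0.51 against -4.02 to -3.58 on the other knockout arrays.

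**Figure D4:**
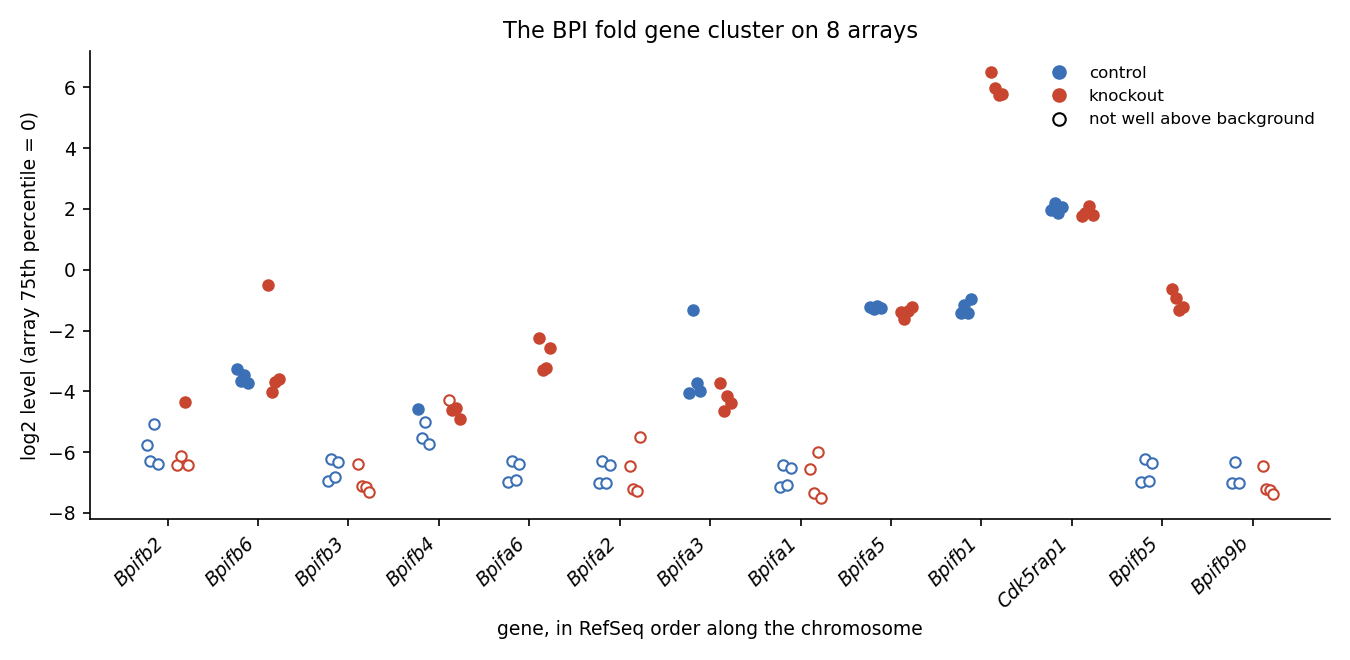
Levels (log2, array 75th percentile at 0) of the genes of the BPI fold block in RefSeq order, including Cdk5rap1, on 8 arrays; open points were not well above background. Bpifa6, Bpifb1 and Bpifb5 separate the groups, while Cdk5rap1 and Bpifa5 between or beside them do not.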

How the data were processed

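The deposited scanner files give a spot intensity, background-subtracted by the authors' Feature Extraction 10.10.1.1, per the file headers. The authors' series matrix holds an intensity per spot that is quantile-normalized without background subtraction, judged from the values. Control spots (3671 of 62976) and 153 to 355 outlier spots per array were left out, and no spot was saturated. Spots were averaged into 55681 probes, and log2 levels were set against the 75th percentile of the array (635.8 to 740.6 units), with 57.4% to 67.1% of probes well above background. Probes well above background on all 4 arrays of a group were kept, and the probe with the highest mean represented a gene. Limma 3.58.1 in R 4.3.3 compared the groups (lmFit and eBayes, two-sided, Benjamini-Hochberg over all 23274 genes, threshold 0.05). The fit was tested on simulated data. Names came from a GRCm38 table, and promoters from RefSeq. Named were the 6 genes with every probe, Rfx6, the relatives past the threshold or at the extremes, the 3 nearest profiles, and marker genes past the threshold. Other genes named were picked after their values were seen. The 6 genes, relatives, markers and tests were chosen with earlier results of these data known. Replicate numbers do not pair the samples (correlations of deviations -0.07, -0.17, 0.07 and -0.41).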

Additional observations from a re-analysis of the deposited data

Results flagged for a closer look

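In 3 of 40 groups of 4 arrays, 7.5%, 1 array lay far from the other 3 relative to their spread, and chance gives about 1 in 20. The 40 groups come from the same 8 arrays, so they are not independent. The Bpifb1 probe at transcript base 1612 was at -2.14 on control 4, against -4.90 to -4.52 on the other control arrays. Its difference within the slide rows was 10.54 and 10.33. The Capn9 probe at transcript base 1454 was at -3.75 on knockout 3, against -3.63 to -3.62 on the other knockout arrays. These 4 values span only 0.13. Rfx6 was at -3.74 on control 4, against -2.98 to -2.91 on the other control arrays.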

How the results depend on the processing

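The 4 large differences kept their direction in every setting run. The median over the 6 genes was 7.17, and 5.26 with normexp background correction and 5.41 with the authors' series matrix values. Vsig1 moved most, to 4.63 and 4.80, Anxa10 to 5.90 and 6.02, and Mal to 6.18 and 6.28. Capn8 overlapped between groups with normexp, with a difference of 0.44, and Vsig1 drops out where all 8 arrays must be well above background, so 5 genes separated in each. Genes called were 541 higher and 602 lower, 542 and 253 with median centring, 297 and 203 without the filter, and 267 and 148 with the replicate block. Relatives called higher fell from 10 to 5 without the filter and to 6 with the replicate block, and Igsf5, the 1 lower, was lost (0) with quantile normalization, median centring, no filter, the mean of a gene's probes, the slide row block and the replicate block. The block also ended the calls of Capn5, Anxa3, Anxa8 and Pllp. Leaving out 1 array gave 337 to 508 genes higher, 217 to 587 lower, 7 to 10 relatives higher and 0 to 1 lower. Counts moved by over 1.5 times without control 1 (354 higher, 250 lower), knockout 1 (337, 217) and knockout 2 (344, 231), and for lower genes without control 3 (315) or 4 (343). Calls of Vsig2 and Vsig8 held in all settings run, and those of Bpifa6 and Bpifb5 in all but the filter on all 8 arrays, under which both drop out. The cause of these moves was not tested. The number of arrays limits the precision, and dim probes have only bounds.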
